A study of Mus musculus with 31 samples.

Results

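The nuclear genes for the subunits of the oxidative phosphorylation machinery were followed as a family. Members were taken by symbol, without use of any measured value: Ndufa, Ndufb, Ndufc, Ndufs and Ndufv symbols with a number for complex I, Sdha to Sdhd for complex II, Uqcr symbols and Cyc1 for complex III, Cox4 to Cox8 symbols for complex IV, and Atp5 symbols for complex V. Symbols marked as pseudogenes by -ps and the Ndufaf assembly factors were left out. No other check for pseudogenes was made, and entries that share much sequence with another member, such as Ndufb4c, stayed in. This gave 89 of the 45706 genes in the count tables, with 40 in complex I, 4 in complex II, 9 in complex III, 19 in complex IV and 17 in complex V. The grouping follows the symbol, so Ndufa4, a protein now counted with cytochrome c oxidase, stands in complex I, Cox7a2l, a factor that joins complexes III and IV into supercomplexes, in complex IV, and Atp5s, the coupling factor B, in complex V.

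Complexes I and II take electrons from NADH and succinate, complex III passes them to cytochrome c, complex IV passes them to oxygen, and ATP synthase, complex V, uses the proton gradient that complexes I, III and IV build. Most of the subunits are encoded in the nucleus, while the mitochondrial genome encodes a small set of the core membrane subunits. Long-term hematopoietic stem cells are known for a low rate of respiration and a reliance on glycolysis, and their progeny turn to oxidative phosphorylation as they leave quiescence and mature.

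RNA was sequenced from cells sorted from the bone marrow of wild-type C57BL/6 mice, 10 weeks old, that received into the peritoneum either PBS or 1 mg β-glucan, a glucose polymer known from the walls of fungi. Long-term hematopoietic stem cells (HSC) were taken on day 7 (4 PBS and 3 β-glucan libraries) and on day 28 (4 and 4), and multipotent progenitors (MPP) on day 28 (4 and 4). In a further pair of groups (4 and 4), the mice received 5-fluorouracil (5-FU, 150 mg/kg, a drug that kills dividing cells) on day 7 after PBS or β-glucan, and HSC were taken 14 days after 5-FU, so both of these groups carry the drug. The labels do not say whether the libraries of a group came from separate mice, and the p-values therefore speak of library to library spread only.

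The 31 libraries held 19331663 to 39485556 counts in genes, with a median of 29751430. Day 7, day 28 and 5-FU libraries stand in separate count tables, which were tied to these sets by their numbers of columns and cell types, since the column names give no day, and levels set across tables cannot be told apart from differences between tables. The stem cell marker list was detected in every library apart from Hoxb5, which was at 0 in some, and took 0.0502% to 0.233% of the counts. Far more went to 13 erythroid markers, 1.86% to 18.8%, and 14 neutrophil markers, 5.23% to 19.5%. At day 28 the stem cell markers took a mean of 0.0763% in PBS and 0.0593% in β-glucan HSC, and 0.0549% and 0.0518% in MPP. The names HSC and MPP are those of the labels, and the purity of the sorted cells was not tested. One MPP library, PBS replicate 1, carries a tag for HSC in its cell type field, and the title was followed. The libraries of replicate 3 of β-glucan at day 28 stood apart in both cell types: the median member lay 0.22 log2 units below the group mean in HSC and 0.18 below it in MPP. Results that rest on these libraries are given with and without them.

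Promoters of the members were searched for 3 short motifs, and 37% held at least 1 of them. RefSeq promoters of build GRCm38.p6, 250 bases before to 50 after the start of the transcript, were matched for 68 of the 89 members (73 promoters). Motifs of 3 factors known at respiratory genes were searched by exact letters on both strands: GCGCATGC or its reverse complement GCATGCGC for NRF1, CCGGAAG or CTTCCGG for the ETS family that includes GABPA, and AAGATGGCG or CGCCATCTT for YY1. The following 60 or fewer bases around the matches of 8 members are printed 5′ to 3′ on the strand of the gene, with the motifs in capitals, and were chosen to show each motif and complexes I to V.
Ndufa11: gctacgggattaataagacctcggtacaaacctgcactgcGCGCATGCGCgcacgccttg
Sdhb: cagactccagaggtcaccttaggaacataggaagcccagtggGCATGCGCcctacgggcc
Sdhd: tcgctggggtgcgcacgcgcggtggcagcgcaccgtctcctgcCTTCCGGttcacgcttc
Uqcrh: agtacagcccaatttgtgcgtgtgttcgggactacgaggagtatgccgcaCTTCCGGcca
Cox6b1: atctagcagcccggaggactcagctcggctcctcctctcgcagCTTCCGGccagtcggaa
Atp5k: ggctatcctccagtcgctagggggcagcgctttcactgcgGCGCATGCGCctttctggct
Atp5l: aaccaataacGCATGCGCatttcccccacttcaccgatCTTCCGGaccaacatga
Atp5j: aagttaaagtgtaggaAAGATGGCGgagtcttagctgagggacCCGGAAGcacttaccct
These windows lie at chr17:56717662-56717721 (plus strand) for Ndufa11, chr4:140961175-140961234 (plus) for Sdhb, chr9:50603879-50603938 (minus) for Sdhd, chr4:116075071-116075130 (minus) for Uqcrh, chr7:30626126-30626185 (minus) for Cox6b1, chr5:108434430-108434489 (minus) for Atp5k, chr9:44920938-44920992 (minus) for Atp5l and chr16:84835021-84835080 (minus) for Atp5j. In Ndufa11 and Atp5k both orientations of the NRF1 letters overlap in 1 palindromic run. Atp5l holds NRF1 and ETS letters, and Atp5j holds YY1 and ETS letters.

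The NRF1 letters stood in 13.7% of the member promoters, against 2.71% of all 32851 promoters in the table and 3.52% of the 21263 promoters of protein-coding genes. The ETS letters stood in 21.9% of member promoters, against 8.86% and 11.6%, and the YY1 letters in 9.59%, against 1.4% and 1.83%. At least 1 of the 3 motifs was found in 37% of member promoters, 12.1% of all promoters and 15.7% of those of protein-coding genes. By complex the share was 35.3% of 34 promoters in complex I, 66.7% of 3 in complex II, 60% of 5 in complex III, 23.1% of 13 in complex IV and 38.9% of 18 in complex V. The median GC content of the promoters was 57.3% for members and 56.3% for protein-coding genes. A match is a description of the letters and not of binding. Cyc1, Cox4i2, Cox6a2 and Sdhc, on which several results turn, were not among the matched promoters.

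Most of the family was expressed in every group. Of the 89 members, 85 passed the filter on low counts in all 9 comparisons, and that filter is passed more easily by a gene that is high in 1 group. Cox7b2 had no count in any library, which allows at most 0.076 to 0.155 CPM by library (CPM are counts scaled to the total of the library). Cox8b and Cox8c, a muscle isoform and a testis isoform of subunit 8, had at most 3 and 1 counts in a library, and these 3 genes were tested nowhere. Ndufa4l2, a paralog of Ndufa4 that is induced by hypoxia, had at most 20 counts in a library and was tested only in the difference between the 5-FU and day 28 effects. After 5-FU its level was 0.179, 0.12, 0.267 and 0.26 CPM in the PBS libraries and 0.303, 0.869, 0.437 and 0.749 CPM in the β-glucan libraries, higher in each of the latter but near the floor of detection.

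Levels were set per kilobase of exon to compare complexes. In each of the 8 groups the median gene of complex IV, which holds the tissue isoforms, was the lowest, at 29.8 to 53.1 CPM per kilobase, and the median gene of complex III the highest, at 105 to 160. Complex I lay at 62.9 to 76.7, complex II at 86.8 to 104 and complex V at 67.5 to 93. Ndufa4 was the highest gene of its group at 471 to 646 CPM per kilobase, and Sdhd, a membrane anchor of succinate dehydrogenase, the highest of complex II at 165 to 196.

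Summed over the 89 genes, members reached 11940 ± 360 CPM (SD, n = 4) in PBS HSC of day 7 and 12640 ± 145 CPM (n = 3) after β-glucan, and here the 3 β-glucan libraries (12490 to 12780) lay above the 4 PBS libraries (11600 to 12310). At day 28, PBS and β-glucan libraries of HSC had sums of 11960 ± 723 and 12680 ± 902 CPM (n = 4 each), those of MPP had 12620 ± 242 and 13070 ± 690 CPM, and the ranges overlapped in both cell types. The overlap rested on β-glucan replicate 3, which was noticed for its low member values, so leaving it out raises these sums by construction. Without it the β-glucan libraries lay at 13020 to 13250 CPM in HSC, above the PBS range of 10960 to 12500. In MPP they lay at 13150 to 13690 CPM, above 12390 to 12880. HSC PBS replicate 3, whose median member lay 0.128 log2 units below its group mean, was kept, so no separation of the groups is claimed. After 5-FU the sums were 13950 ± 755 in PBS and 13370 ± 527 CPM in β-glucan mice, again with overlapping ranges. As plain shares of the counts, members took 1.62% ± 0.030 (SD) in PBS and 1.66% ± 0.065 in β-glucan HSC of day 7. The groups overlapped by this measure, so the separation at day 7 depended on the scaling. At day 28 they took 1.10% and 1.21% in HSC and 1.22% and 1.32% in MPP. After 5-FU they took 1.13% and 1.14%, so the order of the 2 groups after 5-FU depended on the scaling. Complex I held 3892 to 5256 CPM as a group mean, complex V 3445 to 4262, complex IV 1804 to 2388, complex III 1502 to 1704 and complex II 867 to 1024.

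**Figure D1:**
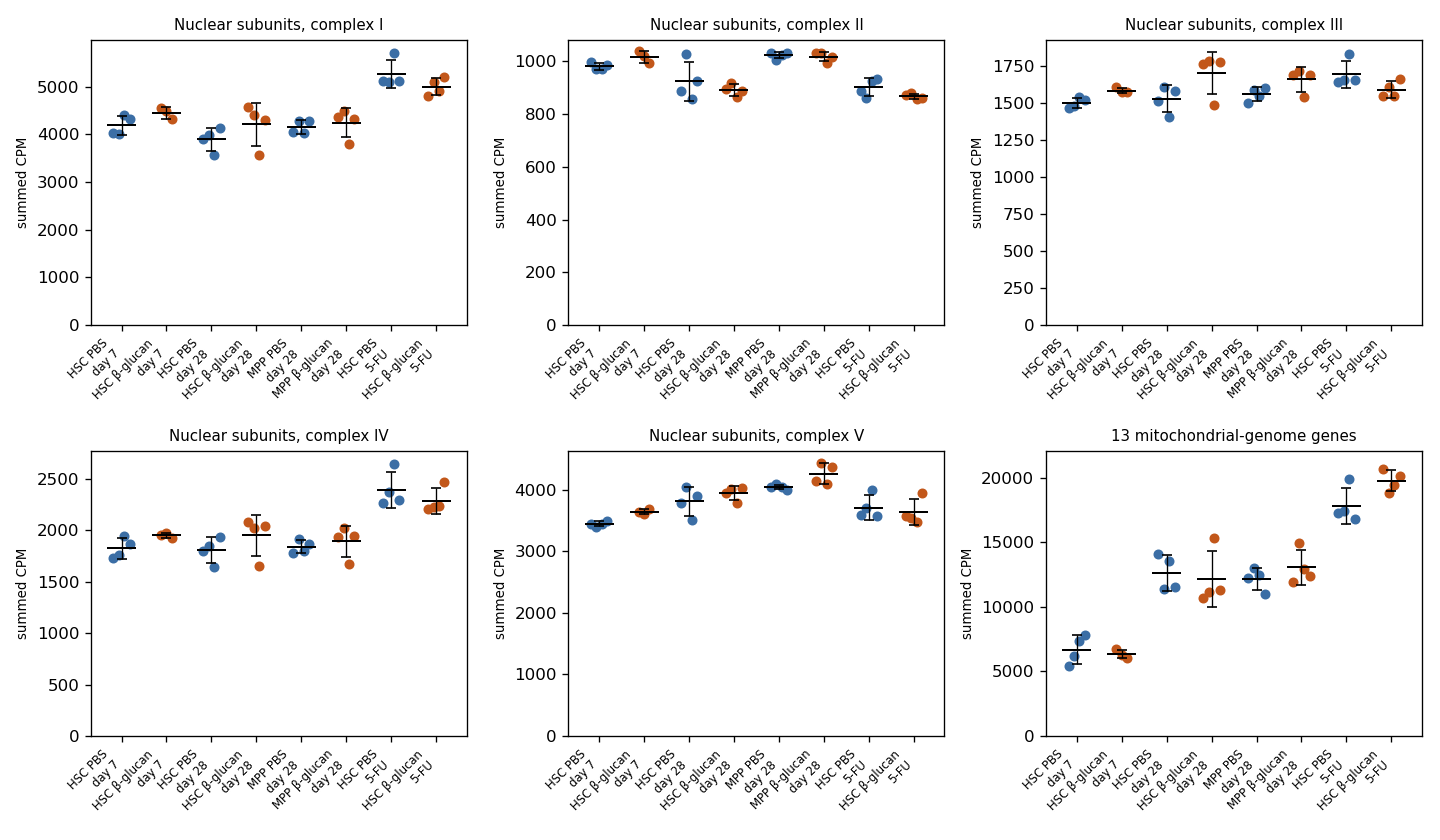
Summed CPM of the members of each complex (vertical axes, CPM) in each library (points) with the group mean and SD (horizontal and vertical lines), by group along the horizontal axis, PBS in blue and β-glucan in orange, and the same for the 13 genes of the mitochondrial genome. HSC of β-glucan mice include 1 low library at day 28, with 11340 CPM over all members against 13020 to 13250 in the other 3.

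β-glucan against PBS in HSC at day 7 asked how the genes stood 1 week after the injection. Of the 85 members tested, 2 rose and none fell, against 2.83% of all 16403 genes called higher and 3.88% called lower (edgeR quasi-likelihood, Benjamini-Hochberg adjusted p of 0.05 or less). The members called were 2.35% of those tested, near the background. The median log2 fold change of the members was 0.094, with 72 above and 13 below 0, and that of all genes was -0.0056. Medians were 0.097 in complex I, 0.086 in complex II, 0.077 in complex III, 0.11 in complex IV and 0.075 in complex V. In these bulk libraries, fewer cells of a type and less RNA per cell cannot be told apart.

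Cox4i2 (chr2:152754173-152765037, plus strand, as the count tables give it) encodes the isoform of subunit 4 that is induced by low oxygen. At day 7 it was at 2.30, 1.81, 2.13 and 2.03 CPM in the PBS libraries and at 5.55, 3.43 and 5.10 CPM in the β-glucan libraries. Each β-glucan library lay above each PBS library, and the log2 fold change was 1.17 ± 0.21 (SE), a 2.26-fold rise with an adjusted p of 0.00732 by edgeR's quasi-likelihood test. By CPM per kilobase, Cox4i2 made up 0.714% ± 0.077 (SD, n = 4) of Cox4i1 and Cox4i2 together in PBS mice. In β-glucan mice it made up 1.51% ± 0.39 (n = 3). Cox4i1, whose log2 fold change was 0.097 ± 0.071, thus remained the main isoform.

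Ndufv3 (chr17:31520115-31531326, plus strand), a small subunit of the NADH-oxidizing arm of complex I, was at 103.2, 99.7, 100.7 and 97.4 CPM after PBS and 125, 136 and 117 CPM after β-glucan. It rose by 0.33 ± 0.077 on the log2 scale (edgeR adjusted p = 0.026), but the adjusted p was 0.108 without β-glucan replicate 2, 0.0771 without PBS replicate 2, 0.0537 without β-glucan replicate 3 and 0.0529 without PBS replicate 4. Cox6a2 (chr7:128205436-128206366, minus strand), the heart and muscle isoform of subunit 6a, was at 15.01, 13.15, 14.12 and 10.84 CPM after PBS and at 9.99, 9.82 and 8.16 CPM after β-glucan. All β-glucan libraries were lower, yet the log2 fold change of -0.51 ± 0.15 had an adjusted p of 0.0666. DESeq2 called it lower, with the same 2 genes higher.

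None of the core genes was called at day 7. Log2 fold changes were -0.019 for Ndufs1 and 0.045 for Ndufv1, core subunits of complex I, -0.051 for Sdha, 0.077 for Uqcrc1, 0.15 for Cox6c, 0.071 for Atp5a1 and 0.040 for Atp5b, the catalytic pair of ATP synthase. Libraries of the 2 groups also differed in markers of mature cells: erythroid markers summed to 42830 to 54690 CPM after PBS and 14830 to 18870 CPM after β-glucan, with 12 of 13 called lower. Neutrophil markers summed to 41040 to 46890 and 59260 to 91350 CPM, with 10 of 14 called higher, and 10 of 12 B cell markers were called lower. The part of these cells in the changes of Cox4i2 and Ndufv3 was not tested.

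In HSC at day 28 no member was called in either direction, with 9 of 85 at an unadjusted p under 0.05 and 1, Cox7a2l, called lower by DESeq2. Of all 16025 genes, 0.0374% were called higher and 0% lower, so few calls were made anywhere. Shares of all genes, here and below, are at the adjusted threshold. Counts at an unadjusted p under 0.05 are given without the share of all genes, so neither an excess nor its absence is read from them. The median member stood at 0.0999 on the log2 scale, with 70 above and 15 below 0, against -0.015 over all genes. Complex III had the highest median, 0.19, and the 4 genes of complex II had a median of -0.065 with 3 below 0.

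Several members separated the HSC groups at day 28 without passing the test. The share of all genes whose groups separated was not determined in any comparison, so a separation describes the gene's own values only. Sdhc (chr1:171127165-171150603, minus strand), the cytochrome b anchor of complex II, was at 111, 123, 111 and 119 CPM after PBS and at 98.0, 93.6, 105.5 and 95.3 CPM after β-glucan, with a log2 fold change of -0.25 ± 0.071 and an edgeR adjusted p of 0.144. Cox7a2l (chr17:83501919-83514333, minus strand) was at 73.4, 87.7, 68.0 and 84.3 CPM after PBS and 60.5, 61.0, 66.4 and 60.4 CPM after β-glucan (-0.34 ± 0.089, adjusted p = 0.141). For both genes each β-glucan library lay below each PBS library. Cox7a1, a muscle isoform of subunit 7a, lay the other way, at 0.294 to 0.466 CPM after PBS and 0.585 to 0.731 CPM after β-glucan (0.85 ± 0.25, edgeR adjusted p = 0.159). Its share of Cox7a1, Cox7a2 and Cox7a2l together, by CPM per kilobase, was 0.414% after PBS and 0.755% after β-glucan. Cox7a1 had at most 37 counts in any library, so its level and share lie near the floor of detection.

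The median of the HSC day 28 comparison depended on single libraries. Without β-glucan replicate 3, which was low for the whole family, it was 0.18 in place of 0.0999, and it was 0.058 without β-glucan replicate 1. No member was called with any 1 library left out. Erythroid markers summed to 188100 to 210600 CPM after PBS and 161100 to 181500 CPM after β-glucan, the neutrophil markers to 74230 to 91110 and 64070 to 73550 CPM, and the stem cell markers to 704 to 943 and 592 to 668 CPM, all without overlap. Their part in the family's values was not tested.

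**Figure D2:**
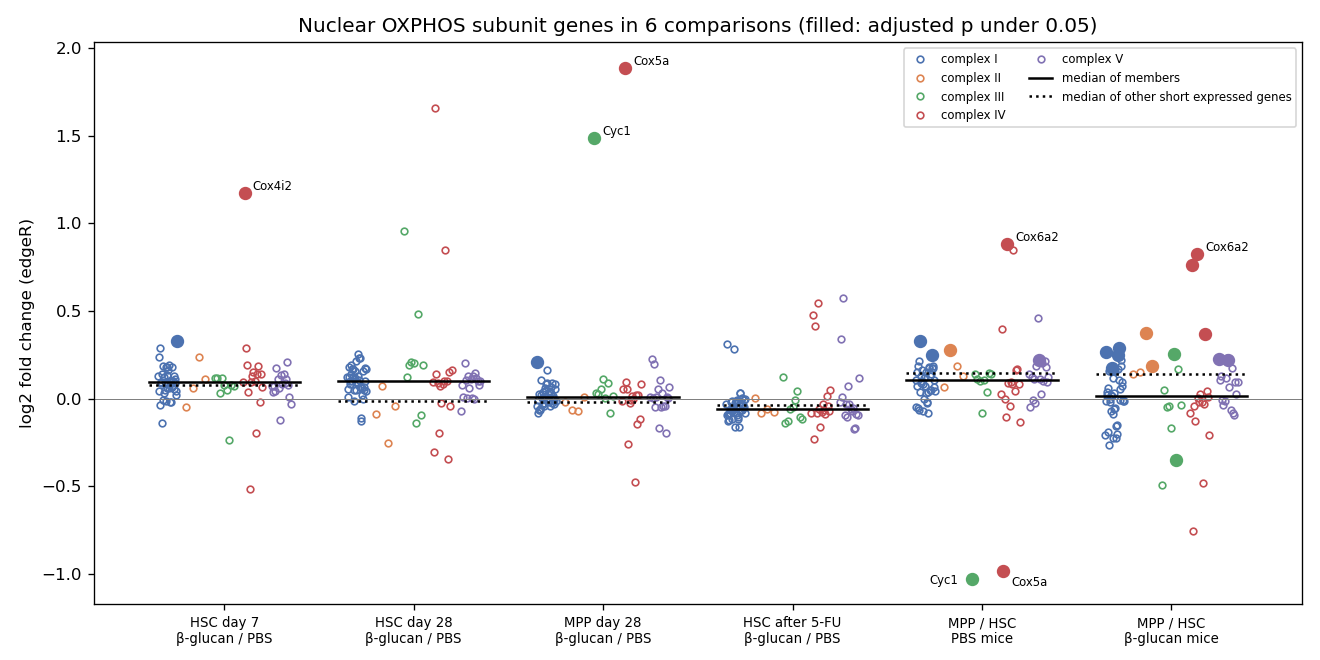
Log2 fold changes (vertical axis) of the tested members (points, coloured by complex) in 6 comparisons along the horizontal axis. Filled points are members with an adjusted p under 0.05, solid lines are medians of the members and dotted lines medians of other short genes. The points lie slightly above 0 in HSC at day 7 and day 28 (medians 0.094 and 0.0999), at 0.0066 in MPP and slightly below 0 after 5-FU (-0.059).

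In MPP at day 28, 3 of 85 members rose and none fell, 3.53% of those tested, against 2.72% of all 15828 genes called higher and 1.91% called lower. The median member was at 0.0066, with 49 above and 36 below 0, and the median gene at -0.0014. Medians were 0.0061 in complex I, -0.041 in complex II, 0.033 in complex III, 0.0047 in complex IV and 0.0063 in complex V. The 3 genes called belong to complexes I, III and IV.

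Cyc1 (chr15:76343523-76345934, plus strand) encodes cytochrome c1, the heme protein of complex III that hands electrons to cytochrome c. In MPP it was at 13.3, 15.1, 16.0 and 15.8 CPM after PBS and at 27.8, 21.1, 55.1 and 67.8 CPM after β-glucan. Each β-glucan library lay above each PBS library, and the gene rose by 1.49 ± 0.29 on the log2 scale, 2.80-fold (edgeR quasi-likelihood, adjusted p = 0.0172). Cox5a (chr9:57521232-57532424, plus strand), a nuclear subunit on the matrix side of cytochrome c oxidase, was at 5.98, 5.95, 5.26 and 6.09 CPM after PBS and at 12.3, 8.23, 27.7 and 39.8 CPM after β-glucan. It rose by 1.89 ± 0.38, 3.70-fold (adjusted p = 0.019), again with no overlap. Ndufa10 (chr1:92439010-92473860, minus strand), an accessory subunit of complex I, went from 93.1, 97.6, 93.0 and 93.2 CPM to 102, 109, 112 and 118 CPM, a rise of 0.21 ± 0.049 (adjusted p = 0.0338).

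These calls depended on single libraries. All 3 were lost when PBS replicate 1, the library with the HSC tag, was left out: Cyc1 then had a log2 fold change of 1.43 (edgeR adjusted p = 0.0588), Cox5a 1.90 (0.0595) and Ndufa10 0.20 (0.0895). They were also lost without PBS replicate 2, PBS replicate 3 or β-glucan replicate 3, and without PBS replicate 4 only Cyc1 was called. Without β-glucan replicate 1 there were 5 calls, with Atp5d and Atp5b, subunits of the F1 head of ATP synthase, added. Leaving out β-glucan replicates 3 and 4, the 2 with the highest Cyc1 and Cox5a, was an alternative chosen after the data were seen, and it left Cyc1 at 0.69 (adjusted p = 0.0138) and Cox5a at 0.81 (0.0244). DESeq2 called 6 members on all libraries, 5 higher and 1 lower. Erythroid markers summed to 150700 to 187500 CPM after PBS and 116400 to 163800 CPM after β-glucan in MPP, and 1 of 13 was called, Klf1, which was higher (1.59 ± 0.24, edgeR adjusted p = 0.00639). Of 14 neutrophil markers 7 were called lower and 1, Ltb4r1, higher (0.77 ± 0.15, adjusted p = 0.0159), and 9 of 12 B cell markers and 7 of 12 T and NK cell markers were called lower. Their part in the 3 rises was not tested.

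Cyc1 and Cox5a also varied between libraries of 1 group. In HSC at day 28, Cyc1 was at 30.9, 43.1, 26.5 and 21.8 CPM after PBS and at 30.1, 34.6, 64.7 and 110 CPM after β-glucan, a log2 fold change of 0.96 ± 0.36 with an edgeR adjusted p of 0.219. Cox5a was at 13.3, 11.5, 13.7 and 7.44 CPM after PBS and at 14.4, 18.7, 37.5 and 76.0 CPM after β-glucan, 1.66 ± 0.44 with an adjusted p of 0.141. In both cell types β-glucan replicates 3 and 4 were the highest. At day 7 the groups overlapped for Cyc1, at 17.9 to 41.1 CPM after PBS and 29.0 to 34.3 CPM after β-glucan, and after 5-FU Cyc1 stood at 8.97 to 9.66 and 8.69 to 10.6 CPM.

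The SD of log2 CPM over the 16 day 28 libraries was 0.88 for Cyc1 and 1.13 for Cox5a, against a median of 0.19 over 8598 genes, and 0.547% and 0.279% of those genes had a larger SD. Only Cox5a, Cox6a2 and Cyc1, of 80 members at this level, varied more than 2 times as much as the median gene, and the median member had an SD of 0.15. Per kilobase, Cyc1 stood at 0.0796 to 0.511 times the level of Uqcrc1, a core protein of the same complex, over these 16 libraries. The genes whose log2 CPM followed the mean of Cyc1 and Cox5a most closely, by Pearson's r over the 16 libraries, were Lyl1 (0.986), Ncln (0.985), Glrx2 (0.985), Ddost (0.98), Rps2 (0.98), Ifnar2 (0.98), Med7 (0.979), Rfc5 (0.979), Gabpb1 (0.975) and Saraf (0.973). This search was made after the values were seen, and the points share libraries, depth and scaling. Lyl1, a transcription factor of blood cells, was at 5.85 to 8.14 CPM in MPP after PBS and 8.88 to 29.4 CPM after β-glucan. Ndufab1, the mitochondrial acyl carrier protein, which is also a part of complex I but not picked by the rule, was at 7.25, 8.05, 5.82 and 9.21 CPM in MPP after PBS and at 15.4, 10.6, 23.5 and 29.7 CPM after β-glucan, and it rose by 1.36 ± 0.26 (edgeR adjusted p = 0.0159).

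**Figure D3:**
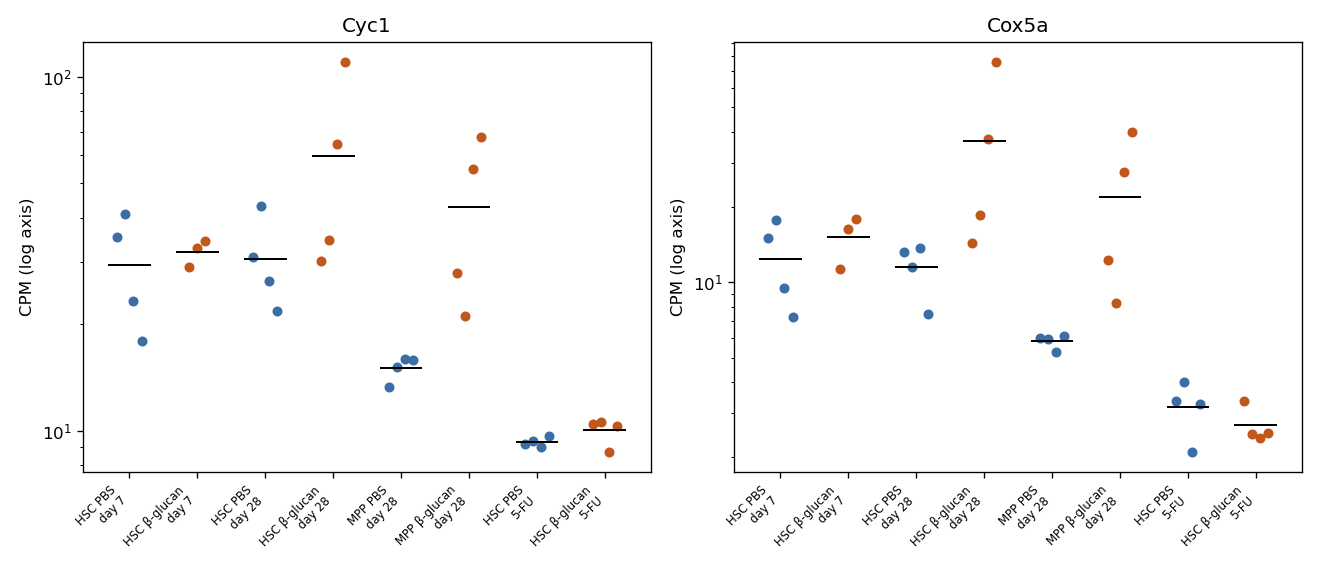
CPM of Cyc1 and Cox5a (vertical axes, log scale) in each of the 31 libraries (points, replicates from left to right) with the group mean (lines), by group along the horizontal axis, PBS in blue and β-glucan in orange. In MPP the β-glucan libraries lie above the PBS libraries for both genes, and replicates 3 and 4 of β-glucan are the highest day 28 libraries in each cell type.

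After 5-FU, no member was called between β-glucan and PBS mice, with 5 of 85 at an unadjusted p under 0.05 and 0 called by DESeq2. Of all 15705 genes, 0.0382% were called higher and 0.00637% lower. The median member was at -0.059, with 18 above and 67 below 0, and the median gene at -0.0031. Without PBS replicate 3, which was high for the family, the median was -0.018. The medians of the complexes ran from -0.067 in complex II to -0.054 in complex V. Cox6a2 separated the groups, at 6.34, 6.35, 7.42 and 5.04 CPM after PBS and 9.53, 9.56, 9.32 and 7.99 CPM after β-glucan, but its log2 fold change of 0.55 ± 0.14 had an edgeR adjusted p of 0.265. Atp5k, a small membrane subunit of ATP synthase, lay lower in each β-glucan library, with a log2 fold change of -0.18 ± 0.062 and an adjusted p of 0.479. Among core genes, the log2 fold change was 0.030 for Ndufs1, -0.12 for Ndufb8, 0.0058 for Sdha, -0.047 for Uqcrc1, -0.085 for Cox4i1 and -0.020 for Atp5a1. Atp5d, the δ subunit of ATP synthase, was at 25.2, 36.8, 45.6 and 35.3 CPM after PBS and at 43.3, 28.2, 39.0 and 100.6 CPM after β-glucan, so that 1 library stood far above the rest. Erythroid markers summed to 160400 to 189000 CPM after PBS and 108100 to 146100 CPM after β-glucan, and their part in these values was not tested.

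MPP against HSC in PBS mice at day 28 asked how the family differs between cell types without β-glucan. Of 85 members, 5 were higher in MPP, 5.88% of those tested, and 2 were lower, 2.35%, against 9.58% of all 16122 genes called higher and 12.1% called lower. The median member was at 0.10, with 67 above and 18 below 0, and the median gene at -0.023. Complex II had the highest median, 0.16, with 4 of 4 genes above 0, and complex I stood at 0.10, complex III at 0.10, complex IV at 0.082 and complex V at 0.12.

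Cox6a2 had the smallest p: it was at 13.4, 11.2, 10.8 and 12.3 CPM in HSC and at 22.0, 23.6, 19.9 and 22.7 CPM in MPP, 0.88 ± 0.095 higher on the log2 scale (edgeR adjusted p = 0.000164). Ndufa4 was at 230.3, 229.6, 228.3 and 239 CPM in HSC and at 293, 299, 273 and 304 CPM in MPP, 0.33 ± 0.060 higher (adjusted p = 0.00314). Sdhb, the iron-sulfur subunit of complex II, was at 179, 199.5, 175 and 187 CPM in HSC and at 231, 224, 221 and 227 CPM in MPP, 0.28 ± 0.060 higher (adjusted p = 0.0075). In each of these genes the lowest MPP library lay above the highest HSC library.

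Atp5g3, a copy of the c-ring subunit of ATP synthase, was 0.22 ± 0.061 higher in MPP (edgeR adjusted p = 0.0242), and Ndufs6b, a near copy of Ndufs6, 0.25 ± 0.077 higher (adjusted p = 0.038). Ndufs6b shares 25.4% of its 50-base stretches with other genes, so its counts may include reads of Ndufs6. Cyc1 and Cox5a were the members that were lower in MPP, by log2 fold changes of -1.03 ± 0.17 (adjusted p = 0.00194) and -0.99 ± 0.17 (adjusted p = 0.00243), with no overlap. Cox6a2, Cyc1, Ndufa4 and Sdhb were called in 13 of 13 alternative fits, Cox5a in 12, Atp5g3 in 10 and Ndufs6b in 6.

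The number of members called moved with single HSC libraries: 22 were called, 20 higher and 2 lower, without HSC PBS replicate 2, 11 (9 and 2) without HSC PBS replicate 4, and 5 (3 and 2) without MPP PBS replicate 1. DESeq2 called 16, of which 14 were higher. Erythroid markers summed to 150700 to 187500 CPM in MPP of PBS mice, below the 188100 to 210600 CPM of HSC, with 9 of 13 called lower, and 8 of 13 stem cell markers were called lower in MPP and 1 higher. The part of these cells in the members' differences was not tested.

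In β-glucan mice, 12 of 85 members were higher in MPP than in HSC, 14.1% of those tested, and 1 was lower, 1.18%, against 17.7% of all 15945 genes called higher and 18% called lower. The median member was at 0.012, with 45 above and 40 below 0, and the median gene at -0.0093. Complex II again had the highest median, 0.17, with 4 of 4 above 0, and complex III stood at -0.043.

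Of the 12 genes called higher, 2 belong to complex II. Sdhc was at 98.0, 93.6, 105.5 and 95.3 CPM in HSC and at 126.5, 134, 122 and 130.5 CPM in MPP, 0.38 ± 0.057 higher (edgeR adjusted p = 0.000582). Sdhd went from 217, 221, 222 and 219.5 CPM to 251, 257.5, 250 and 251 CPM, 0.19 ± 0.046 higher (adjusted p = 0.0083). Both anchors of complex II were thus higher in MPP without overlap, and Sdha, its flavoprotein, lay 0.14 ± 0.054 higher without passing the test (adjusted p = 0.0631).

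In complex I, Ndufa10 was 0.26 ± 0.057 higher in MPP (edgeR adjusted p = 0.00438), Ndufs1, the large iron-sulfur subunit, 0.25 ± 0.071 (0.0173) and Ndufa9 0.18 ± 0.050 (0.0179). Uqcrc2, a core protein of complex III, was at 168, 173, 183 and 171 CPM in HSC and at 207, 211, 204 and 212.5 CPM in MPP, 0.25 ± 0.049 higher (adjusted p = 0.00241). Atp5a1, the α subunit of ATP synthase, was at 771.5, 832, 834 and 829 CPM in HSC and at 938, 981, 960 and 972 CPM in MPP, 0.23 ± 0.055 higher (adjusted p = 0.00814). None of these 5 genes overlapped between the cell types, but they were named because they passed the test on the same libraries. The share of all genes without overlap was not determined.

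Uqcrfs1, the Rieske iron-sulfur protein of complex III, was the member that fell below HSC: it was at 23.6, 20.3, 20.4 and 23.4 CPM in HSC and at 15.2, 19.0, 17.3 and 17.7 CPM in MPP, -0.35 ± 0.089 (edgeR adjusted p = 0.0103). Among the isoforms, Cox6a2 was 0.82 ± 0.13 higher in MPP (adjusted p = 0.000733) and Cox7a2l 0.37 ± 0.053 higher (adjusted p = 0.000473). Atp5g3, 0.22 ± 0.070 higher, and Cox4i2, 0.76 ± 0.26 higher, passed the test (adjusted p of 0.0295 and 0.0412) with groups that overlapped. Cyc1 (-0.50, adjusted p = 0.397) and Cox5a (-0.75, adjusted p = 0.307) did not pass it on all libraries in the main fit. Without replicates 3 and 4 of both cell types Cox5a did (-0.68, adjusted p = 0.0306). With a replicate block in edgeR on all libraries, both genes were called lower in MPP. Cyc1 was then at -0.45 (adjusted p = 0.00501) and Cox5a at -0.70 (adjusted p = 0.00189). The labels state no mouse or batch shared by same-numbered libraries.

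These counts rested on the low library of β-glucan HSC. Without replicate 3 of that group, 22 members were called, 11 higher and 11 lower, and the median was -0.062. The members then also called lower in MPP were Ndufb11, Ndufa1, Ndufc1, Ndufa3, Ndufa13, Ndufb7, Ndufb9 and Ndufb8, small accessory subunits of complex I, with Uqcrc1 and Cox8a, at log2 fold changes of -0.40 to -0.23 and edgeR adjusted p-values of 0.00563 to 0.0336. Without replicate 3 of both cell types 28 were called (19 higher and 9 lower), and without replicates 3 and 4 of both 24 (15 and 9). With a replicate block on all libraries 30 were called. Cox6a2, Cox7a2l and Atp5a1 were called in 15 of 15 alternative fits, Ndufs1 and Uqcrfs1 in 13, Ndufa9 in 11, Atp5g3 in 10 and Cox4i2 in 7. Uqcrfs1 had an edgeR adjusted p of 0.0755 without replicates 3 and 4 of both cell types, Ndufs1 one of 0.0528 without HSC replicate 4 and 0.0509 without MPP replicate 3, and Ndufa9 one of 0.0819 without MPP replicate 1, 0.0525 without MPP replicate 2 and 0.0635 without HSC replicate 4. Of the erythroid markers 11 of 13 were lower in MPP, of the stem cell markers 9 of 14 were lower and 1 higher, and of the neutrophil markers 9 of 14 were lower, and their part in the members' differences was not tested.

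The difference between the β-glucan effects in MPP and HSC at day 28 was tested directly, and no member was called, with 3 of 85 at an unadjusted p under 0.05 and 0 by DESeq2. Of all 16691 genes, 0% had a higher effect in MPP and 0.00599% a lower one. The median difference of the members was -0.089, with 18 above and 67 below 0, and it was -0.0097 without MPP β-glucan replicate 3. For Cyc1, which passed the test in MPP and not in HSC, the difference was 0.52 ± 0.51 (edgeR adjusted p = 0.915), and for Cox5a it was 0.22 ± 0.64 (adjusted p = 0.979).

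The effects at day 28 and day 7 in HSC, which share no control libraries but come from separate count tables, differed for 3 of 85 members, all with a lower effect at day 28. These were 3.53% of the members, against 2.24% of all 17977 genes with a higher effect at day 28 and 2.58% with a lower one. The median difference was -0.028 over the members, 0.035 without β-glucan replicate 3 of day 28, and -0.023 over all genes.

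For Sdhc the difference was -0.52 ± 0.11 (edgeR adjusted p = 0.00988). At day 7 it was at 135, 129, 125 and 111 CPM after PBS and at 146.5, 145 and 151 CPM after β-glucan, so the β-glucan libraries were all higher at day 7 and all lower at day 28, though neither effect passed the test alone. Cox7a2l showed the same order, with 112, 112, 123 and 107.5 CPM after PBS and 130, 131.5 and 126.5 CPM after β-glucan at day 7, and a difference of -0.56 ± 0.12 (adjusted p = 0.0111). For Cox4i2 the difference was -1.50 ± 0.36 (adjusted p = 0.0215): at day 28 it was at 1.28, 0.807, 1.34 and 1.10 CPM after PBS and 1.04, 0.963, 0.488 and 1.196 CPM after β-glucan, with overlap. Sdhc and Cox7a2l were called in 20 of 20 alternative fits, whereas Cox4i2 had an adjusted p of 0.0596 without β-glucan replicate 3 of day 7. Cox7a2l shares 13.8% of its 50-base stretches with other genes, among them Gm6969. In the same contrast 11 of 13 erythroid markers had a higher effect at day 28, and 10 of 14 neutrophil markers a lower one. The part of these cells in the 3 differences was not tested.

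**Figure D4:**
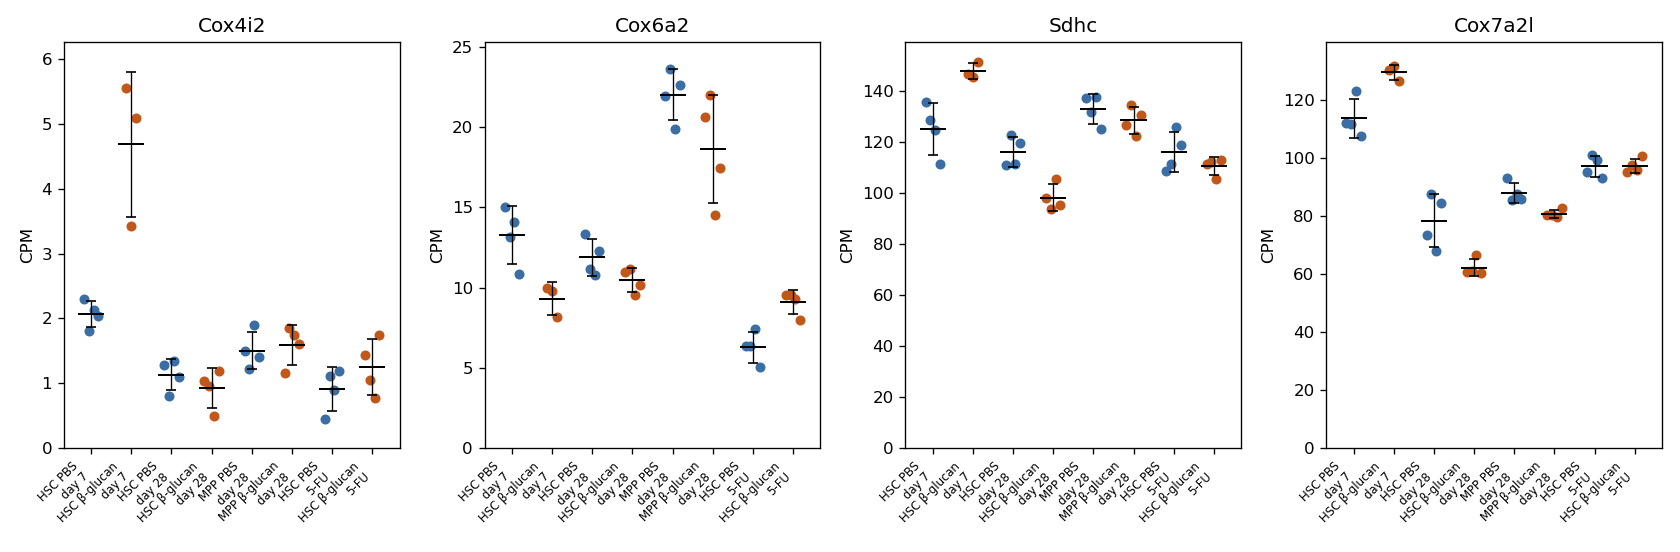
CPM of Cox4i2, Cox6a2, Sdhc and Cox7a2l (vertical axes) in each library (points) with the group mean and SD (lines), by group along the horizontal axis. Sdhc and Cox7a2l lie higher after β-glucan at day 7 and lower at day 28 in HSC, Cox4i2 lies higher after β-glucan at day 7, and Cox6a2 is higher in MPP than in HSC.

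Between the β-glucan effects after 5-FU and at day 28, no member of 86 tested was called, with 16 at an unadjusted p under 0.05, while DESeq2 called Cox6a2 higher after 5-FU (log2 difference 0.70, adjusted p = 0.0207). Of all 16985 genes, 0.053% had a higher effect after 5-FU and 0.053% a lower one. The median member was at -0.16, with 15 above and 71 below 0, and the median gene at 0.0020. Cox6a2 had a difference of 0.72 ± 0.17 by edgeR (adjusted p = 0.154) and Cox5a one of -1.91 ± 0.56 (adjusted p = 0.227).

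Isoforms of a subunit took unequal shares of its transcripts, set here by CPM per kilobase. Cox6a2 made up 5.13% of Cox6a1 and Cox6a2 together in PBS HSC of day 7 and 3.56% after β-glucan. The shares were 3.70% and 3.05% in day 28 HSC, 7.06% and 5.71% in MPP, then 1.84% and 2.84% after 5-FU. Cox6b2, the testis isoform of subunit 6b, stayed between 5.24% and 6.22% of Cox6b in all groups. Among the 3 genes for the c-ring subunit of ATP synthase, Atp5g3 held 65.9% to 89.3% and Atp5g1 8.44% to 28.9%. Cox4i1, Cox6a1, Cox6b1, Cox7a2 and Cox8a, the main isoforms, were called in none of the 9 comparisons, and log2 fold changes of the 5 genes after β-glucan lay between -0.087 and 0.16.

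Genes around the family were read from lists of related genes. The 13 protein genes of the mitochondrial genome, the partners of the nuclear subunits, summed to 6694 ± 1101 CPM in PBS HSC of day 7, 12640 at day 28 and 17840 ± 1386 after 5-FU, which was 0.910%, 1.17% and 1.45% of the counts. None was called in the 4 β-glucan comparisons, and 11 of the 13 were tested at day 7. After 5-FU 12 of the 13 lay above 0 with a median of 0.16, and 8 had an unadjusted p under 0.05 by edgeR. This count is given without the share of all genes, so no excess is read from it. Of the 85 nuclear members 67 lay below 0, and the difference between the 2 sets was not tested. Of 42 assembly factors, Cox11 alone was called after β-glucan, lower in HSC at day 7 (-0.90, edgeR adjusted p = 0.0454). In MPP of β-glucan mice 13 assembly factors were higher than in HSC and 2 lower, among them Ecsit at 0.50 and Ndufaf4 at 0.42, and of 17 tricarboxylic acid cycle enzymes outside complex II 10 were higher and none lower, with Suclg2 at 0.54 and Idh3g at 0.48, where 17.7% of all genes were called higher and 18% lower. In PBS mice 5 assembly factors were higher in MPP and 1 lower, and of the cycle enzymes Fh1 (0.31) and Idh3g (0.43) were higher and Idh2 (-0.55) and Dlat (-0.37) lower, where 9.58% of all genes were called higher and 12.1% lower.

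In MPP at day 28, the β-glucan comparison called Idh2 higher (1.32 ± 0.22, edgeR adjusted p = 0.00899) and Dlat (0.54 ± 0.11, adjusted p = 0.0181) among the cycle enzymes, and Slc25a3, the mitochondrial phosphate carrier, among the carriers (0.67 ± 0.10, adjusted p = 0.00639). Of 14 regulators of mitochondrial biogenesis, Polrmt, the mitochondrial RNA polymerase, was called higher there (0.54 ± 0.13, adjusted p = 0.0313), and Nrf1 (-0.0072), Gabpa (0.14), Esrra (0.28), Tfam (-0.0031), Ppargc1a (-0.20), Ppargc1b (0.26) and Hif1a (0.044) were not called. Between MPP and HSC of β-glucan mice Ppargc1a (0.99, adjusted p = 0.0349) and Tfam (0.20, adjusted p = 0.0438) were higher and Hif1a lower (-0.41, adjusted p = 0.00649). Cycs, the cytochrome c that links complexes III and IV, was called in none of the 9 comparisons, with log2 values of 0.0036, 0.19, 0.11 and -0.014 for β-glucan in HSC at day 7 and day 28, MPP and 5-FU. Of 77 mitochondrial ribosomal proteins, a list added after the data were seen, 3 rose in MPP after β-glucan, and in β-glucan mice 33 were higher in MPP than in HSC with a median of 0.16, where 17.7% of all genes were called higher and other genes under 1500 bases had a median of 0.14.

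Members are short transcripts, with a median length of 1237 bases and 52 of 89 under 1500 bases, against 2992 bases over 18310 genes tested. A comparison with other genes under 1500 bases at a similar level was therefore made, after the data were seen. At day 7 the 1047 short genes had a median of 0.080 with 71.1% above 0, beside 84.7% of the members. At day 28 in HSC the 1060 short genes had a median of -0.014 with 46.7% above 0, beside 82.4% of the members. In MPP the short genes stood at -0.018 and after 5-FU at -0.037, with 29% above 0, beside 21.2% of the members. Between MPP and HSC of PBS mice they stood at 0.15, with 73% above 0 beside 78.8% of the members, and in β-glucan mice at 0.14, with 70.3% above 0 beside 52.9%.

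The same comparison was made library by library. In β-glucan replicate 3 of day 28, the median of 74 members lay 0.218 below the group mean in HSC and that of 1060 short genes 0.087 below it, and in MPP the distances were 0.176 and 0.089. In HSC PBS replicate 3 of day 28 the members lay 0.128 and the short genes 0.071 below, whereas in HSC PBS replicate 3 after 5-FU they lay 0.119 and 0.077 above. Members and short genes thus lay on the same side of the group mean in each of these 4 libraries, with members further out.

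**Figure D5:**
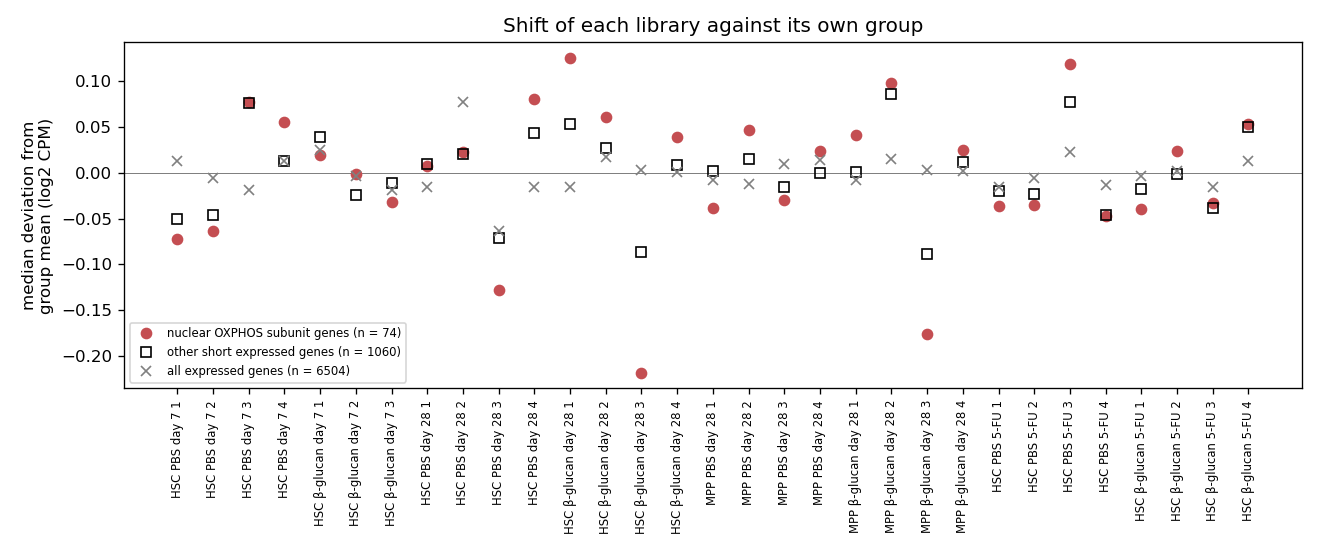
Median deviation from the mean of the group (vertical axis, log2 CPM) in each library (horizontal axis) for 74 members (filled circles), 1060 other short genes (squares) and all expressed genes (crosses). The 2 libraries of β-glucan replicate 3 at day 28 have the lowest member medians, -0.218 in HSC and -0.176 in MPP, and the short genes lie less far below 0 in them.

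Levels set across the count tables differed for some members far more than any comparison within a table. In HSC of PBS mice, Ndufb4c stood at a mean of 0.729 CPM at day 7, 69.5 CPM at day 28 and 121 CPM after 5-FU, Atp5g1 at 29.0, 132.5 and 143 CPM, and Atp5d at 138, 154.5 and 35.7 CPM. Of 84 members above 1 CPM, 20 differed by more than 2-fold between tables, and these differences cannot be told apart from the table. All 50-base stretches of Ndufb4c occur in other genes, and 23 members share more than 10% of theirs, among them Cox6c2 (52.7%), Atp5o (41.6%), Atp5g2 (38.3%) and Cox7c (22.1%), so the counts of these members are uncertain. Cyc1, Cox4i2, Ndufa4, Sdhb, Sdhd, Uqcrfs1 and Atp5g3 share none, and Cox5a shares 9.11%.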

How the data were processed

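Per the labels' protocols, RNA was extracted from sorted cells with an RNeasy Plus Micro kit and libraries were made with the SMARTer Ultra HV v2 protocol, which does not mark strand. Per the submitters' processing notes, bcl2fastq 1.8.4, featureCounts and mm10 were used, while for the aligner nothing is given in the sources used here. The deposited values are raw counts of reads for each gene in 3 tables, 1 for day 7, 1 for day 28 and 1 for 5-FU, and the names of the 31 columns give cell type, treatment (P and G read as PBS and β-glucan) and number. The day or 5-FU was inferred from the table: the only one with 3 β-glucan columns was taken as day 7, the only one with MPP as day 28 and the remaining one as 5-FU. Symbols were taken from GENCODE M21 for 45143 of 45706 identifiers. None of the 45 pairs of replicates agreed within sampling noise.

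Counts were tested with edgeR 4.0.16 (R 4.3.3) on the libraries of each comparison: genes passing filterByExpr (minimum count 10), TMM scaling and the quasi-likelihood test, p-values adjusted by Benjamini-Hochberg across every gene in the fit, threshold 0.05. Standard errors were derived from the F statistic. Differences between effects were tested as interaction terms. Printed CPM use TMM-scaled totals over all 31 libraries, and SDs of log2 CPM use a prior count of 2. The fit was tested on simulated data. Alternatives were DESeq2 1.42.0, no filter, other normalization, all 8 groups in 1 fit, a replicate block and each library left out.

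Named are fixed core genes of each complex, isoform members, up to 8 members of smallest p in each direction among those called, and a few regulators and carriers. Other members with separated groups were named after their values were seen. The members and lists were chosen with earlier results of these data known. One gene of the family is counted among the members but not reported here by name.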

Additional observations from a re-analysis of the deposited data

Results flagged for a closer look

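Of 175 group values of 25 items, 18 held a library far from the other 3 of its group by Dixon's criterion, and chance gives about 1 in 20. Among summed CPM, β-glucan HSC replicate 3 of day 28 stood low for all members (11340, others 13020 to 13250), complex III (1487, others 1765 to 1785) and complex IV (1648, others 2022 to 2082), and β-glucan MPP replicate 3 stood low for complex III (1538, others 1691 to 1720). After 5-FU, HSC PBS replicate 3 stood high for all members (15080, others 13500 to 13670), complex I (5695, others 5093 to 5124) and complex III (1829, others 1640 to 1655), and HSC β-glucan replicate 4 stood high for complex IV (2468, others 2202 to 2235).

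Among single genes in HSC of β-glucan mice at day 28, Atp5a1 was low in replicate 1 (771.5 CPM, others 829 to 834) and Cox7a2l high in replicate 3 (66.4 CPM, others 60.4 to 61.0). In MPP of PBS mice, Cox5a was low in replicate 3 (5.26 CPM, others 5.95 to 6.09) and Ndufa10 high in replicate 2 (97.6 CPM, others 93.0 to 93.2). In MPP of β-glucan mice, Ndufa4 was low in replicate 3 (264.5 CPM, others 309 to 314) and Sdhd high in replicate 2 (257.5 CPM, others 250 to 251). After 5-FU in β-glucan mice, Cox5a was high in replicate 1 (3.37 CPM, others 2.38 to 2.50), Cox6a2 low in replicate 4 (7.99 CPM, others 9.32 to 9.56) and Cyc1 low in replicate 3 (8.69 CPM, others 10.3 to 10.6), and in PBS mice Ndufa10 was high in replicate 3 (27.5 CPM, others 23.9 to 24.0).

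The effect of β-glucan differed between day 28 and day 7 in HSC by the interaction test for Sdhc (-0.52), Cox7a2l (-0.56) and Cox4i2 (-1.50).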

How the results depend on the processing

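No called gene changed direction between the settings tried. The median log2 fold change of the members kept its sign in HSC at day 7 (0.069 to 0.135), at day 28 (0.058 to 0.192) and after 5-FU (-0.073 to -0.018), between MPP and HSC of PBS mice (0.067 to 0.129), and in the differences between MPP and HSC (-0.164 to -0.0097) and between 5-FU and day 28 (-0.233 to -0.122). It crossed 0 in MPP (-0.020 to 0.078), between MPP and HSC of β-glucan mice (-0.062 to 0.067) and in the difference between day 28 and day 7 (-0.069 to 0.035). With all 8 groups in 1 fit, 5 members were called in HSC at day 7 (2 in the separate fit), 3 in HSC at day 28 (0) and 5 in the difference between day 28 and day 7 (3). Without the filter on low counts, 1 member was called in HSC at day 28, 5 in MPP (3) and 1 in the difference between 5-FU and day 28 (0). DESeq2 called 1 in HSC at day 28, 6 in MPP, 16 between MPP and HSC of PBS mice (7) and 1 in the difference between 5-FU and day 28. With 1 library left out, members called ranged from 1 to 2 in HSC at day 7, 0 to 0 in HSC at day 28, 0 to 5 in MPP, 0 to 0 after 5-FU, 5 to 22 and 10 to 22 between MPP and HSC of PBS and β-glucan mice, and 0 to 0, 2 to 4 and 0 to 0 in the differences between MPP and HSC, day 28 and day 7, and 5-FU and day 28. Between MPP and HSC of β-glucan mice, 28 were called without replicate 3 of both groups and 24 without replicates 3 and 4 of both, 2 settings chosen after the data were seen. Groups share replicate numbers but no stated mouse or batch, and correlations of same-numbered deviations were -0.031 to 0.034 in HSC at day 7, -0.047 to 0.115 at day 28, 0.0026 to 0.075 in MPP, -0.037 to -0.0083 after 5-FU, -0.0044 to 0.067 between cell types in PBS mice and 0.061 to 0.128 in β-glucan mice, where 4 of 4 libraries correlated best with their own number. With a replicate block, 1 member was called in HSC at day 7 (Ndufv3 lost, adjusted p = 0.106) and 30 (18 higher and 12 lower) between MPP and HSC of β-glucan mice, where Cyc1 (-0.45, adjusted p = 0.00501) and Cox5a (-0.70, adjusted p = 0.00189) were then called lower in MPP, and Cox4i2 lost its call in the difference between day 28 and day 7 (adjusted p = 0.0511, edgeR). The cause of these changes was not tested. Depth limits genes near 3 counts, such as Cox8b, Cox8c and Ndufa4l2.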
